A study of Mus musculus with 10 samples.

Results

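The transcripts described here encode the enzymes that prepare and form the covalent cross-links of collagen and elastin: the lysyl oxidases Lox, Loxl1, Loxl2, Loxl3 and Loxl4 and the lysyl hydroxylases Plod1, Plod2 and Plod3. They were chosen by gene symbol, and all 8 were found among the 14854 genes of the tables. RNA-seq had been done on mesenchymal cells sorted by FACS from adult mouse lung, in 5 lineages of 2 libraries each. The groups Axin2:Pdgfra (both labels), Axin2 (tdT), Pdgfra (EGFP) and Negative (neither) came from Axin2CreERT2:tdT:PdgfraEGFP mice, in which an inducible Cre recombinase under Axin2, a Wnt target gene, switches on the tdT reporter and EGFP marks cells that express Pdgfra. The Wnt2 group came from Wnt2CreERT2:R26REFYP mice, so its mouse line and its lineage cannot be told apart. Nothing in the labels tells if both libraries of a lineage are from different animals, and p-values therefore reflect no more than the scatter of these samples, possibly of technical origin.

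Lysyl hydroxylases act inside the cell, on procollagen in the endoplasmic reticulum, and turn chosen lysines into hydroxylysine. Lysyl oxidases are copper enzymes that act outside the cell and oxidise lysine and hydroxylysine to reactive aldehydes, which then join neighbouring collagen or elastin molecules. Both families are known in the lung for alveolar elastic fibres and for the stiff matrix of fibrosis.

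Values are the deposited log2 signals, in which a difference of 1 is a doubling. The tables were not normalised for transcript length as far as the sources used here state, so levels are compared between lineages and not between genes. Every member was above the lowest value of every library, and all 8 passed the filter on low values. Between 2.09% and 18.4% of a library's genes sat at its lowest value. Negative library 2 and Wnt2 library 2 had Xist at 8.57 and 7.81 against 16.68 to 17.72 in the other 8, and they had the highest Ddx3y, a Y-linked gene, at 10.74 and 11.48. Wnt2 library 1 held Ddx3y at 8.15 beside Xist at 17.04, and the other 7 libraries had Ddx3y at 2.06 or less. By these genes the 2 Negative libraries differed in sex and cannot be from the same animal. The 2 Wnt2 libraries differed in the same genes. Epithelial markers were found in all groups of these mesenchymal sorts. The log2 of the summed signal of 12 such genes was 17.91 and 17.98 in Negative and 14.59 to 17.14 in the other libraries, with at most 1 of the 12 at the lowest value in any library.

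Across the 5 lineages, 4 of the 8 members differed: Lox, Loxl1, Loxl2 and Plod3 (limma F-test, Benjamini-Hochberg adjusted p of 0.00173, 0.0115, 0.0171 and 0.027). The share of all 14177 tested genes called by this test was 8.2%. Adjusted p was 0.121 for Plod2, 0.184 for Plod1, 0.217 for Loxl3 and 0.259 for Loxl4. In the 10 pairwise tests between lineages, 12 of 80 member tests passed, beside 2.57% of the tests of all genes. Of all genes, the pairs of Axin2:Pdgfra called 2.3% against Axin2, 0.0423% against Pdgfra, 6.72% against Negative and 0.635% against Wnt2. Those of Axin2 called 2.26% against Pdgfra, 0.6% against Negative and 4.05% against Wnt2, those of Pdgfra 2.91% against Negative and 0.367% against Wnt2, and Negative against Wnt2 5.81%. The member calls comprised 6 pairs for Lox and 2 pairs each for Loxl1, Loxl2 and Plod3. When limma's trend and robust options were both turned off, 0 members passed the F-test (limma, 4 at unadjusted p under 0.05), while over all genes 1163 calls became 205. The F-test call of Loxl2 was lost without Axin2 library 1 (adjusted p = 0.067), Axin2 library 2 (0.084), Wnt2 library 1 (0.0971) or Wnt2 library 2 (0.131). That of Plod3 was lost without Axin2 library 1 (0.0947), Axin2 library 2 (0.126), Pdgfra library 1 (0.0683), Wnt2 library 1 (0.0784) or Wnt2 library 2 (0.0763), and with the second index sequence as a factor (0.0534). Without both Negative library 2 and Wnt2 library 2, neither Loxl2 (0.118) nor Plod3 (0.0738) passed. Without Axin2:Pdgfra library 1 or 2, Loxl3 passed as well (0.0257 and 0.0272), and without Negative library 2 Plod2 did (0.038). With library quality weights both Loxl3 (0.0482) and Plod2 (0.0409) passed, which made 6 of 8, while over all genes 1163 calls became 1488.

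**Figure D1:**
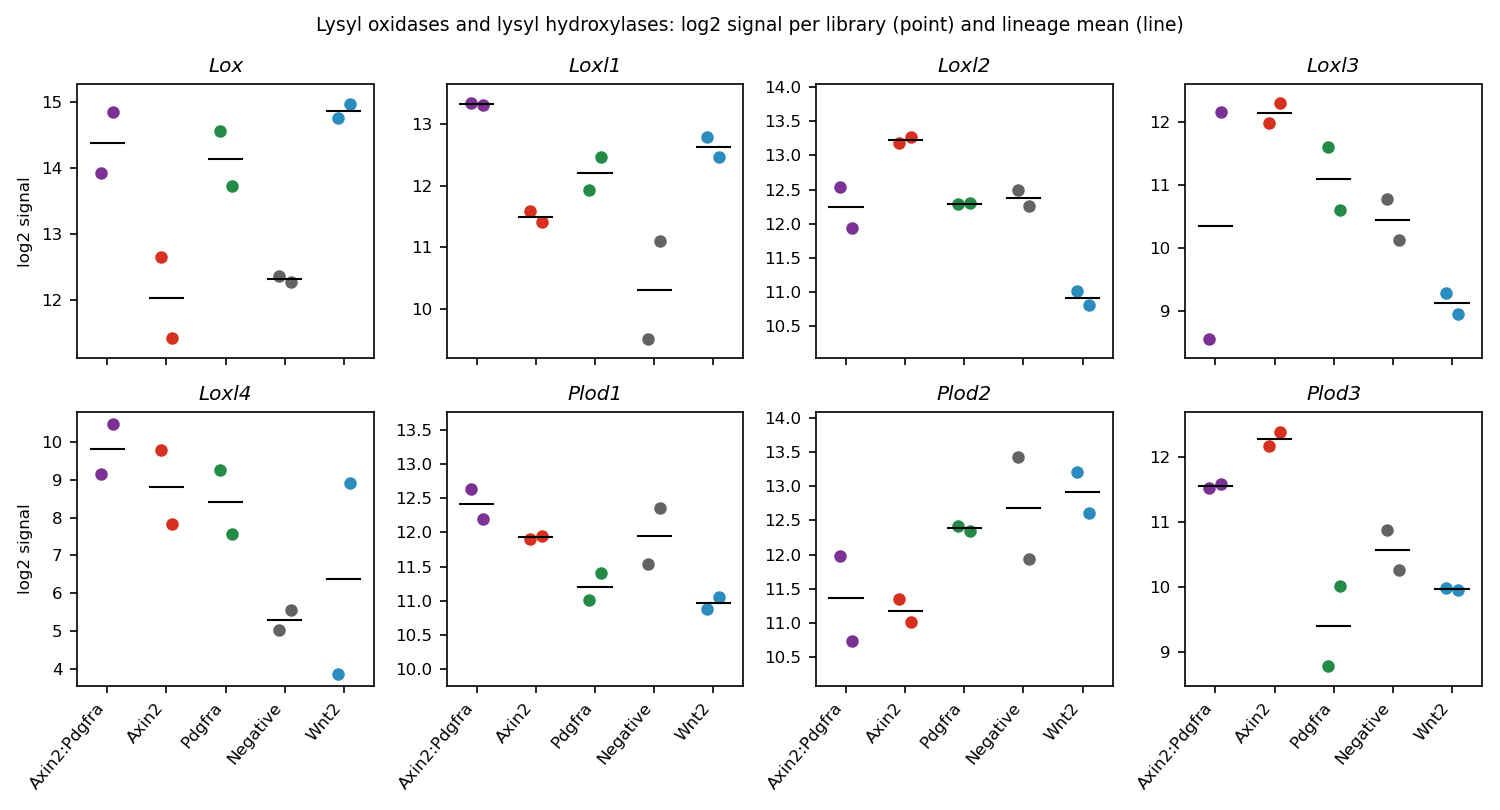
Log2 signal of each member (y axis, 1 panel per gene) in the 5 lineages (x axis); points are the 2 libraries and the line is their mean. Lox and Loxl1 are higher in the 4 libraries with the Pdgfra label than in the 4 Axin2 and Negative libraries, Loxl2 is lowest in both Wnt2 libraries, and Plod3 is higher in the 4 libraries with the Axin2 label than in the 4 Pdgfra and Negative libraries.

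Lox, the founding lysyl oxidase, which cross-links collagen and elastin after its propeptide is removed by Bmp1, was high in every library with the Pdgfra label and in Wnt2. It was at 13.92 and 14.86 in Axin2:Pdgfra, 14.56 and 13.73 in Pdgfra and 14.76 and 14.97 in Wnt2. It was at 12.65 and 11.42 in Axin2 and 12.37 and 12.27 in Negative. These last 4 libraries lay below the other 6. The order of the means was Wnt2 (14.87 ± 0.15, SD, n = 2 here and below), Axin2:Pdgfra (14.39 ± 0.66), Pdgfra (14.15 ± 0.58), Negative (12.32 ± 0.07) and Axin2 (12.04 ± 0.87). Between neighbours only Pdgfra and Negative differed by the test (1.83 ± 0.43, log2 ± SE; limma, adjusted p = 0.0357). The other neighbours lay 0.24 to 0.48 apart (adjusted p of 0.685 to 0.851).

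Loxl1, which is tied to the upkeep of elastic fibres, followed a similar order. It was at 13.34 and 13.30 in Axin2:Pdgfra, 12.79 and 12.46 in Wnt2, 11.93 and 12.46 in Pdgfra, 11.58 and 11.40 in Axin2, and 9.51 and 11.11 in Negative. The Negative libraries were the lowest and also differed most from each other. The difference of Axin2:Pdgfra from Negative was the largest that passed for any member between 2 lineages, 3.01 ± 0.50 (limma, adjusted p = 0.00242), an 8.05-fold difference. It was kept whichever library was left out (2.21 to 3.81, adjusted p up to 0.0213). No neighbours in the order differed by the test (differences of 0.43 to 1.19, adjusted p of 0.299 to 0.915).

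In the contrast of the 4 libraries with the Pdgfra label against the 4 without it in the same mouse line, Lox and Loxl1 were the members that passed, 2 of 8, both higher. Of all genes, 6.48% passed, 3.55% as higher and 2.93% as lower. Lox was 13.73 to 14.86 with the label and 11.42 to 12.65 without, a difference of 2.09 ± 0.30 (4.26-fold; limma, adjusted p = 0.000857; 95% interval 1.44 to 2.74). Loxl1 was 11.93 to 13.34 with the label and 9.51 to 11.58 without, a difference of 1.86 ± 0.35 (3.62-fold; adjusted p = 0.00569; 1.10 to 2.62). For neither gene did the ranges overlap. The share of all genes without such overlap was not computed, so this is a description only. Both calls were kept whichever library was left out (differences of 1.79 to 2.40 for Lox and 1.46 to 2.26 for Loxl1; adjusted p up to 0.00988 and 0.0408). Without the trend and robust options the adjusted p was 0.0648 for Lox and 0.0839 for Loxl1, while over all genes 918 calls became 364.

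Fibroblast, mural, epithelial and mesothelial markers moved with the same contrast. All 6 fibroblast markers (Col1a1, Col1a2, Col3a1, Dcn, Lum, Pdgfra) were higher with the Pdgfra label, with summed log2 levels of 17.05 to 17.80 against 14.76 to 16.21. Pdgfra drives the label itself, and the 3 collagens of this list are also substrates of these enzymes. Of the alveolar fibroblast markers 7 of 10 were higher and 10 of 10 had differences above 0 (median 1.19). The same counts held for the adventitial fibroblast markers (median 1.86), a list that also holds Dcn. Of the pericyte markers, 7 of 10 were lower (14.35 to 14.85 against 16.28 to 18.44), as were 4 of 8 smooth muscle markers (13.30 to 14.72 against 13.90 to 17.41) and 6 of 12 epithelial markers (15.44 to 17.14 against 15.78 to 17.98). The other 3 pericyte markers had differences above 0, which did not pass. Among smooth muscle and epithelial markers 0 differences were above 0. Of 7 mesothelial markers 4 were lower and 1 higher (median difference -4.05), with summed levels of 12.15 to 13.59 against 13.26 to 13.84. None of the pericyte or smooth muscle markers was at the lowest value in any library. The part of these cell types in the differences of Lox and Loxl1 was not tested, and in bulk samples fewer cells of a type and less RNA per cell cannot be told apart.

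The remaining oxidases gave no call with the Pdgfra label. Loxl4 had a difference close in size to that of Lox, 2.08 ± 1.14, but an interval of -0.37 to 4.53 (adjusted p = 0.334). Loxl2 differed by -0.53 ± 0.27 (adjusted p = 0.292; interval -1.12 to 0.05) and Loxl3 by -0.56 ± 0.63 (0.68; -1.92 to 0.80). The hydroxylases Plod1, Plod2 and Plod3 had differences of -0.13 ± 0.32, -0.06 ± 0.38 and -0.95 ± 0.41 (adjusted p of 0.874, 0.959 and 0.209). The interval of Plod2, -0.87 to 0.76, leaves room for changes below about a doubling in either direction.

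**Figure D2:**
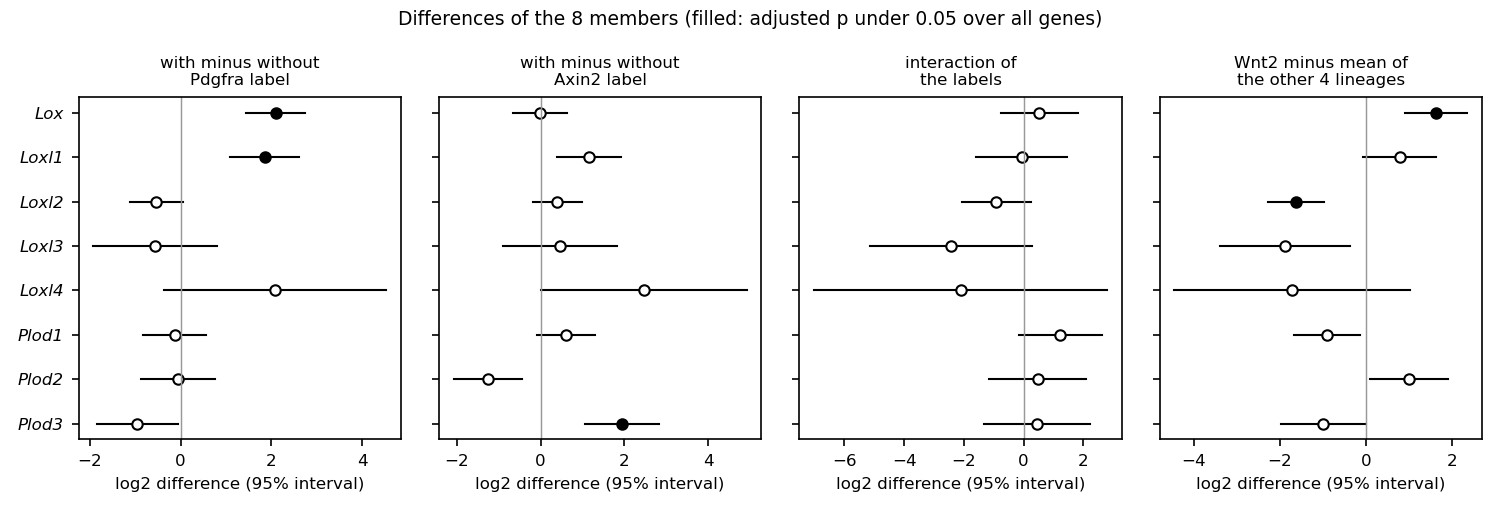
Log2 differences (x axis) of the 8 members (y axis) in the 4 contrasts, as points with their 95% intervals; filled points passed the threshold over all genes. Lox and Loxl1 are filled for the Pdgfra label, Plod3 for the Axin2 label, Lox and Loxl2 for Wnt2, and no member for the interaction.

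With or without the Axin2 label, the Pdgfra label went with similar differences in Lox and Loxl1. Lox differed by 2.35 between Axin2:Pdgfra and Axin2 and by 1.83 between Pdgfra and Negative, an interaction of 0.52 ± 0.60 (limma, adjusted p = 0.816; 95% interval -0.77 to 1.82). Loxl1 differed by 1.82 and 1.89 in the same pairs (interaction -0.06 ± 0.71; 0.985; -1.58 to 1.46). No member passed the interaction test (0 of 8 by limma, 0 at unadjusted p under 0.05 with and without the trend and robust options), and of all genes 0% passed, with 1296 at unadjusted p under 0.05. Plod1 was higher in both Axin2:Pdgfra libraries (12.64 and 12.20) than in both Axin2 libraries (11.91 and 11.95), and lower in both Pdgfra libraries (11.01 and 11.41) than in both Negative libraries (11.54 and 12.36). Its interaction was 1.23 ± 0.64 (adjusted p = 0.595; -0.15 to 2.61).

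Plod3, a hydroxylase that also adds sugars to hydroxylysine and is needed for the collagen IV of basement membranes, went with the Axin2 label. It was at 11.53 and 11.58 in Axin2:Pdgfra and 12.18 and 12.39 in Axin2. It was at 8.77 and 10.01 in Pdgfra, 10.87 and 10.26 in Negative and 9.98 and 9.95 in Wnt2. All 4 libraries with the label lay above all 6 without it, a separation whose share over all genes was not computed. Against the 4 unlabelled libraries of the same mouse line the difference was 1.94 ± 0.41 (3.84-fold; limma, adjusted p = 0.0336; 95% interval 1.05 to 2.83). Plod3 was the only member to pass, 1 of 8, beside 1.64% of all genes (0.501% as higher and 1.14% as lower). The difference was 1.63 to 2.25 whichever library was left out, but the call was lost without Axin2:Pdgfra library 1 (0.0624), Axin2:Pdgfra library 2 (0.0759), Axin2 library 1 (0.0897), Axin2 library 2 (0.15), Pdgfra library 1 (0.167), Negative library 2 (0.069), Wnt2 library 1 (0.0614) or Wnt2 library 2 (0.0594). Without both libraries low in Xist the adjusted p was 0.131. With the second index sequence of the libraries as a factor it was 0.0657, while over all genes 232 calls became 123. Calls over all genes also fell in each fit above in which a left-out library lost the call of Plod3. Without Negative library 2, where Plod3 did not pass, Loxl1 did (1.55, adjusted p = 0.0383).

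Other values moved with Plod3. Summed epithelial markers were at 15.44 to 16.37 in the libraries with the Axin2 label and 16.56 to 17.98 in the Pdgfra and Negative libraries, and erythroid markers at 8.45 to 9.73 against 10.22 to 16.50, in neither case with overlap. Endothelial markers were at 14.39 to 15.62 against 15.85 to 17.05 and immune markers at 13.22 to 14.27 against 14.58 to 15.70, again without overlap. The share of all genes or gene lists that separate in this way was not computed, so this is a description only. Of these lists, 6 of 12 epithelial, 3 of 5 erythroid, 3 of 10 endothelial and 0 of 10 immune genes passed as lower. In the direction of Plod3, 1 of 8 smooth muscle markers passed as higher (median difference 1.73, 8 of 8 above 0), as did 2 of 10 adventitial and 2 of 10 alveolar fibroblast markers (medians 0.92 and 0.36). Of all genes 0.501% passed as higher and 1.14% as lower. The part of these cell types in the difference of Plod3 was not tested. In the GRCm38 annotation (GENCODE M21) Plod3 lies on chromosome 5 from 136987019 to 136996648 and shares 1003 bases with Znhit1, which runs on the opposite strand. Whether the counting used strand is not given in the sources used here, so reads of the overlap may have been given to either gene. Znhit1 was at 9.51 and 11.41 in Axin2:Pdgfra, 9.33 and 9.61 in Axin2, 7.01 and 6.33 in Pdgfra, 7.69 and 9.95 in Negative and 6.85 and 8.89 in Wnt2 (Axin2 label, 2.22 ± 0.82; limma, adjusted p = 0.184).

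Plod2, which hydroxylates the telopeptide lysines of collagen and is known from fibrotic matrix, had the opposite sign to Plod3 for the Axin2 label. It was at 11.98 and 10.74 in Axin2:Pdgfra, 11.34 and 11.01 in Axin2, 12.42 and 12.34 in Pdgfra, 13.42 and 11.93 in Negative and 13.20 and 12.61 in Wnt2. The 4 libraries with the Axin2 label were the lower ones except for a narrow overlap of Axin2:Pdgfra library 1 with Negative library 2. The difference was -1.26 ± 0.38 (limma, adjusted p = 0.106; 95% interval -2.07 to -0.45) and did not pass over all genes. For Plod1, the hydroxylase of helical lysines whose loss causes a form of Ehlers-Danlos syndrome, the Axin2 label difference was 0.60 ± 0.32 (0.363). The oxidases Loxl1 and Loxl4 had Axin2 label differences of 1.15 ± 0.35 (adjusted p = 0.111) and 2.46 ± 1.14 (0.283). Lox differed by -0.02 ± 0.30 (0.982; interval -0.67 to 0.63), Loxl2 by 0.40 ± 0.27 (0.48) and Loxl3 by 0.47 ± 0.63 (0.744).

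Wnt2 cells had the highest mean of Lox and the lowest of Loxl2. Loxl2, an oxidase with scavenger receptor domains that is known to cross-link collagen IV, was at 11.02 and 10.81 in Wnt2. It was at 13.19 and 13.27 in Axin2, 12.49 and 12.26 in Negative, 12.29 and 12.30 in Pdgfra, and 12.54 and 11.94 in Axin2:Pdgfra. Both Wnt2 libraries lay below the other 8, and both Axin2 libraries lay above all the rest. How many of all genes separate in this way was not computed. Against the mean of the other 4 lineages, Loxl2 was lower in Wnt2 by 1.62 on the log2 scale (difference -1.62 ± 0.30; 3.07-fold; limma, adjusted p = 0.0124; 95% interval -2.27 to -0.97). Lox was higher by 1.64 ± 0.34 (3.12-fold; adjusted p = 0.0208; 0.92 to 2.37), although the Wnt2 values of 14.76 and 14.97 overlapped with Axin2:Pdgfra library 2 at 14.86. This mean includes the low Axin2 and Negative lineages. Lox in Axin2:Pdgfra and in Pdgfra did not differ from Wnt2 by the test (-0.48 ± 0.43 and -0.72 ± 0.43; limma, adjusted p of 0.685 and 0.788). High Lox was thus shared with the lineages that carry the Pdgfra label.

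Lox and Loxl2 were 2 of 8 members called in Wnt2, beside 2.16% of all genes (0.719% as higher and 1.44% as lower). Both calls were lost without Wnt2 library 1 (adjusted p = 0.199 for Lox and 0.15 for Loxl2) or Wnt2 library 2 (0.289 and 0.233). That of Lox was also lost without Pdgfra library 2 (0.0524). Without both Negative library 2 and Wnt2 library 2, the pair low in Xist, adjusted p was 0.264 for Lox and 0.153 for Loxl2. Calls over all genes also fell without either Wnt2 library. With library quality weights Loxl3, Plod1 and Plod2 passed in addition (limma, adjusted p of 0.0275, 0.0462 and 0.0491), while over all genes 306 calls became 1322. These gains are therefore not particular to the members. Without weights Loxl3, Plod1 and Plod2 differed by -1.88 ± 0.71 (0.23), -0.90 ± 0.36 (0.263) and 1.01 ± 0.42 (0.291). Plod3 differed by -0.98 ± 0.46 (0.354), Loxl1 by 0.80 ± 0.40 (0.383) and Loxl4 by -1.71 ± 1.28 (0.574). Loxl3 also passed without Axin2:Pdgfra library 1, with a difference of -2.33, while calls over all genes fell. That fit leaves 1 library in the Axin2:Pdgfra group.

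Summed pericyte and smooth muscle markers were lowest in the same group. Summed adventitial markers lay above both Negative libraries (15.68 and 15.80), but most genes of that list did not. Its largest Wnt2 values were those of Gsn (15.60 and 16.09). The median level of the list was 10.39 and 8.97 in Wnt2 against 10.15 and 10.41 in Negative. Of its 10 genes 7 had a higher mean in Negative than in Wnt2 (median difference 1.08). Of 10 pericyte markers 8 were lower in Wnt2 (summed log2 level 12.86 and 13.06, against 14.35 to 18.44 elsewhere), of 8 smooth muscle markers 5 were lower (12.60 and 12.96 against 13.30 to 17.41) and of 10 adventitial fibroblast markers 7 were lower (16.00 and 16.30 against 15.68 to 17.84). Of 10 alveolar fibroblast markers 2 were higher (18.42 and 18.61 against 16.85 to 18.10). Of 12 epithelial markers 3 were lower, of 7 mesothelial markers 1 (median -4.57) and of 10 endothelial markers 1. Of 6 fibroblast markers 1 was higher and 1 lower. Of all genes 0.719% were higher and 1.44% lower. Their part in the differences of Lox and Loxl2 was not tested.

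Between single lineages, the pairs that passed for these genes were as follows. Lox was lower in Axin2 than in Wnt2 by 2.83 on the log2 scale (-2.83 ± 0.43; limma, adjusted p = 0.0018), than in Axin2:Pdgfra (0.00977) and than in Pdgfra (0.0209), and lower in Negative than in Wnt2 (0.00307), Axin2:Pdgfra (0.00953) and Pdgfra (0.0357). The pairs of Lox with Wnt2 were kept whichever library was left out (adjusted p up to 0.0439 for Axin2 and 0.0354 for Negative). Without both libraries low in Xist, adjusted p of Negative and Wnt2 was 0.099, of Axin2:Pdgfra and Negative 0.0738 and of Pdgfra and Negative 0.166. The other 4 Lox pairs were lost without at least 1 library of the pair: Axin2:Pdgfra library 2 (0.124) or Axin2 library 2 (0.161) for the pair of those lineages, Axin2:Pdgfra library 2 (0.107) for the pair with Negative, Axin2 library 2 (0.254), Pdgfra library 1 (0.251) or Pdgfra library 2 (0.051) for Axin2 and Pdgfra. For Pdgfra and Negative, Pdgfra library 1 (0.293), Pdgfra library 2 (0.076), Negative library 0 (0.0653), Negative library 2 (0.108), Wnt2 library 1 (0.0573) and Wnt2 library 2 (0.0574) were each enough.

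Loxl1 was higher in Wnt2 than in Negative by 2.32 (adjusted p = 0.0143; limma), a call lost without Wnt2 library 1 (0.176) or Wnt2 library 2 (0.0794). Loxl2 was higher in Axin2 than in Wnt2 by 2.31 ± 0.39 (0.00345), lost without Axin2 library 2 (0.0629) or Wnt2 library 2 (0.0516). It was also higher in Negative than in Wnt2 by 1.46 ± 0.39 (0.0385), a call lost in 8 of the 10 fits with a library left out (adjusted p of 0.0559 to 0.245): it was kept without Axin2:Pdgfra library 1 or 2. Plod3 was higher in Axin2 than in Pdgfra by 2.89 ± 0.59 (0.0209) and than in Wnt2 by 2.32 ± 0.59 (0.0394). The first of these was lost without Axin2 library 1 (0.0991), Axin2 library 2 (0.215) or Pdgfra library 1 (0.202), and the second without Axin2 library 1 (0.149), Axin2 library 2 (0.253), Wnt2 library 1 (0.256) or Wnt2 library 2 (0.233). With the second index sequence as a factor both were lost (0.0588 and 0.0991), as was the pair of Negative and Wnt2 for Loxl2 (0.0521).

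The order of lineages could not be read for Loxl3 or Loxl4. For Loxl3 the 2 Axin2:Pdgfra libraries lay far apart, and Loxl4 varied within several groups. Loxl3, an oxidase needed for palate and spine development, was at 8.56 and 12.15 in the 2 Axin2:Pdgfra libraries, the lowest and the second highest of its values. It was at 11.98 and 12.29 in Axin2, 11.60 and 10.60 in Pdgfra, 10.77 and 10.12 in Negative and 9.29 and 8.96 in Wnt2. Loxl3 shares 1297 bases with Htra2 on the opposite strand. Loxl4, a less studied oxidase of the same subfamily, was at 9.17 and 10.50 in Axin2:Pdgfra, 9.80 and 7.83 in Axin2, 9.27 and 7.58 in Pdgfra, 5.03 and 5.55 in Negative, and 3.85 and 8.91 in Wnt2. The widest gap for Loxl3, between Axin2 and Wnt2, was 8.02-fold and did not pass (limma, adjusted p = 0.0791; log2 interval 1.08 to 4.92). Neither gene had a neighbour in its order that differed by the test (adjusted p of 0.602 to 0.97 for Loxl3 and 0.756 to 0.933 for Loxl4). The SD of a group reached 2.53 for Loxl3 and 3.58 for Loxl4, against at most 1.13 for the other 6 members. For Loxl3 this was Axin2:Pdgfra alone, and its other groups had an SD of 0.22 to 0.70. The median group SD was 0.46 for Loxl3 and 1.19 for Loxl4, against 0.58 for Lox.

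The remaining orders were as follows. Loxl2 fell from Axin2 through Negative, Pdgfra and Axin2:Pdgfra to Wnt2, with no neighbours different by the test (limma, adjusted p of 0.157 to 0.972). Plod1 was highest in Axin2:Pdgfra, then Negative (11.95 ± 0.58), Axin2 (11.93 ± 0.02), Pdgfra and Wnt2, where its libraries were at 10.88 and 11.06 (adjusted p between neighbours of 0.459 to 0.993). Plod2 ran from Wnt2 (12.91 ± 0.42) through Negative, Pdgfra and Axin2:Pdgfra to Axin2 (11.18 ± 0.23), with neighbours at 0.449 to 0.944. Plod3 ran from Axin2 (12.28 ± 0.15) through Axin2:Pdgfra, Negative and Wnt2 to Pdgfra (9.39 ± 0.87), with neighbours at 0.368 to 0.901.

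The balance between members of a family was read within each library, where the difference of log2 values of a pair of genes carries a fixed offset for length and only its change between lineages can be interpreted. Lox minus Loxl2 was 3.74 and 4.16 in Wnt2, 1.39 and 2.91 in Axin2:Pdgfra, 2.27 and 1.43 in Pdgfra, -0.12 and 0.01 in Negative, and -0.54 and -1.84 in Axin2. The Wnt2 libraries were the highest, the Axin2 libraries the lowest, and the libraries of the other groups lay between them. Plod2 minus Plod3 was 0.45 and -0.84 in Axin2:Pdgfra and -0.83 and -1.38 in Axin2, against 3.65 and 2.33 in Pdgfra, 2.55 and 1.67 in Negative and 3.22 and 2.66 in Wnt2. Here the 4 libraries with the Axin2 label lay below all 6 others. Both pairs were chosen after the values were seen and are given without a test.

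**Figure D3:**
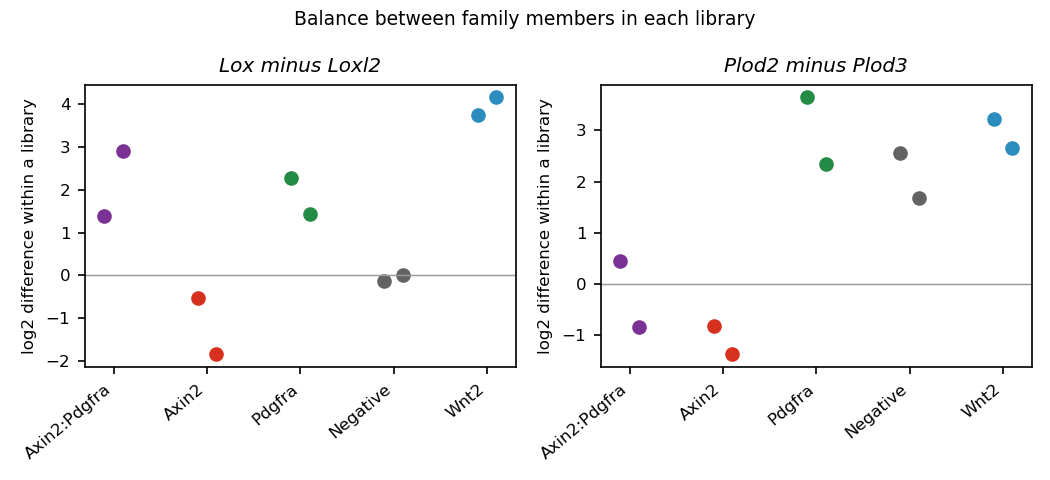
Difference of log2 signal between a pair of genes in each library (y axis) by lineage (x axis), for Lox minus Loxl2 and Plod2 minus Plod3; each point is a library. The Wnt2 points are highest at 3.74 and 4.16 and the Axin2 points lowest for the oxidases, and the 4 points with the Axin2 label are lowest for the hydroxylases; the zero line has no meaning of its own, since gene length adds a fixed offset.

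Among the 8 members over the 10 libraries, Lox correlated with Loxl1 (Pearson r = 0.72) and inversely with Loxl2 (r = -0.77). Plod1 correlated with Plod3 (r = 0.67), and Plod2 inversely with Plod1 (r = -0.63), Plod3 (r = -0.65) and Loxl4 (r = -0.68). These were the 6 largest of 28 coefficients in size. They are descriptions only, since the libraries come in pairs of a lineage and share one normalisation. By the same measure, the genes most like Lox among 10087 detected in all libraries were Gpam (r = 0.97), Ccbe1 (0.97) and Sfr1 (0.95). They were Art4 (0.99), C1ra (0.966) and Crispld2 (0.965) for Loxl1, E130309D02Rik (0.98), Plekhg3 (0.97) and Smtn (0.97) for Loxl2, and Tgfb1 (0.93), Gpt2 (0.89) and Hilpda (0.89) for Loxl3. For Loxl4 they were Dhodh, Pdgfrl and Fbxo25 (0.87 to 0.89), for Plod1 Rpl41, Gm6768 and Hist1h1e (0.93 to 0.94), for Plod2 Stx17, Asxl2 and Arid2 (0.90 to 0.93) and for Plod3 Tuba1b, Uba1 and Arpc4 (0.95 to 0.97).

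Some substrates of these enzymes were higher with the Pdgfra label. Of 11 fibrillar collagens and elastin in the tables, 4 were higher, 0 lower and 7 did not pass, beside 3.55% of all genes higher and 2.93% lower (median 1.14, against 0.0047 over all genes). Those higher were Col1a2 by 1.46 ± 0.19 (limma, adjusted p = 0.000449), Col1a1 by 1.61 ± 0.23 (0.000857), Col3a1 by 1.72 ± 0.27 (0.00153) and Col5a1 by 1.14 ± 0.29 (0.0277). Elastin (Eln) was at 11.08 to 13.82 with the label and 9.32 to 12.52 without (adjusted p = 0.192). With the Axin2 label none of the 11 passed (median 0.74 against 0.0718), nor in Wnt2 (median -0.50 against 0.13). In Wnt2, Col1a1 was at 13.76 and 13.30, below the Pdgfra-labelled libraries at 14.40 to 15.16. Col3a1, at 15.35 and 14.16, overlapped with its range there (15.09 to 15.95). Eln, at 14.70 and 12.49, had a Wnt2 difference of 2.01 ± 0.71 (adjusted p = 0.198).

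**Figure D4:**
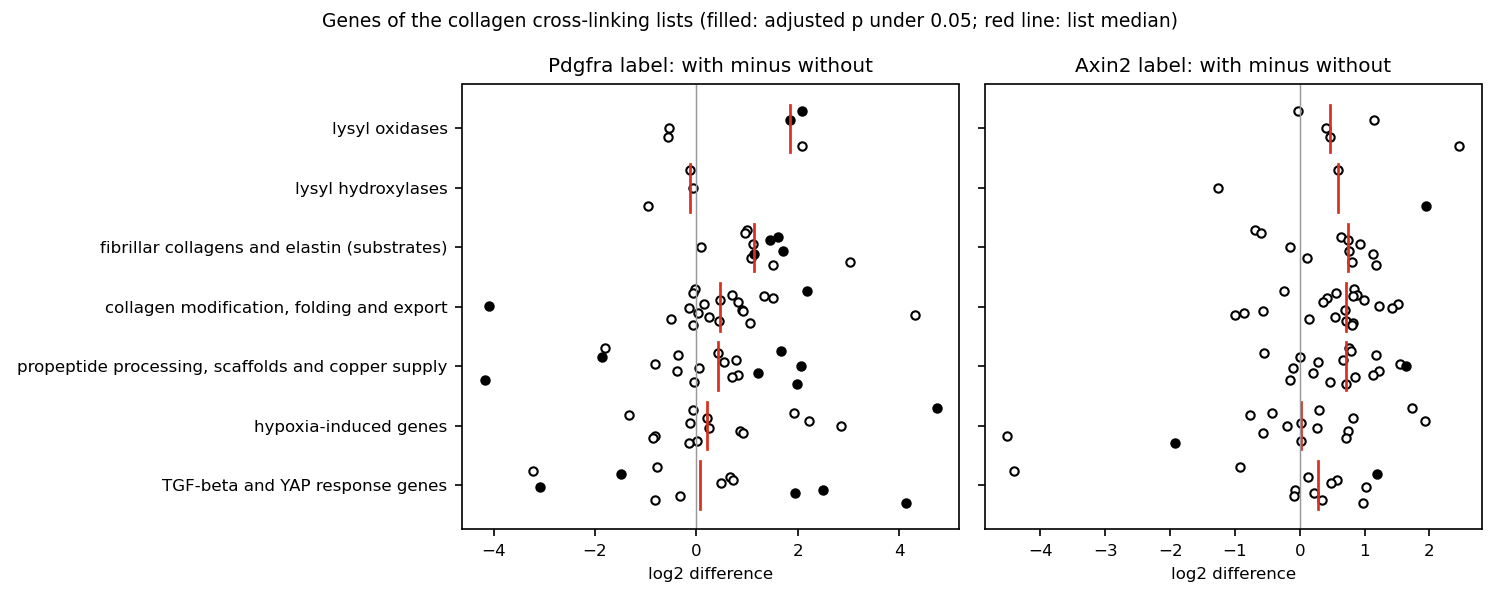
Log2 differences (x axis) for the Pdgfra label (left) and the Axin2 label (right) of every gene in 7 lists (y axis); filled points passed the threshold over all genes and the red line is the list's median. For the Pdgfra label the medians are 1.86 for the oxidases, -0.13 for the hydroxylases and 1.14 for the substrates, against 0.0047 over all genes. The median of the 5 oxidases is the value of Loxl1, 2 of the 5 are filled, and Loxl2 and Loxl3 lie below 0 (-0.53 and -0.56).

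The enzymes and chaperones that modify, fold and export collagen alongside the hydroxylases were listed as 20 genes. With the Pdgfra label 1 was higher and 1 lower (median 0.46), beside 3.55% and 2.93% of all genes, a share too close to that of all genes to set the list apart. Colgalt2, which adds galactose to hydroxylysine, was higher by 2.18 ± 0.39 (limma, adjusted p = 0.00386), with means of 11.91 ± 0.52 in Axin2:Pdgfra and 11.45 ± 0.08 in Pdgfra against 9.03 ± 0.49 in Axin2 and 9.97 ± 0.05 in Negative. P3h2, a prolyl 3-hydroxylase of basement membrane collagen, was lower by 4.09 on the log2 scale (-4.09 ± 1.14; 0.0463), with 10.63 and 10.60 in Negative and 3.36 and 4.93 in Pdgfra, and with 9.54 and 9.37 in Axin2 and 8.53 and 6.96 in Axin2:Pdgfra (interaction 4.76 ± 2.28; adjusted p = 0.553). Fkbp10, a chaperone that works with Plod2, had a difference of 0.70 ± 0.54 (0.519), and Serpinh1, the collagen chaperone, of -0.07 ± 0.29 (0.931). With the Axin2 label 16 of the 20 differences were above 0 (median 0.71 against 0.0718 over all genes), and none passed. In Wnt2 none passed either (median -0.37), Serpinh1 being at -1.30 ± 0.33 (0.0584).

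Of 17 genes for propeptide removal, scaffolding of Lox and copper supply, 4 were higher and 2 lower with the Pdgfra label (median 0.42). Of all genes 3.55% were higher and 2.93% lower. The higher ones were Thbs1 by 1.98 ± 0.20 (limma, adjusted p = 4.52e-05), fibronectin Fn1 by 1.21 ± 0.16 (0.000564), Emilin1 by 2.07 ± 0.38 (0.0046) and the procollagen protease Adamts2 by 1.68 ± 0.44 (0.0341). The lower ones were Postn, which holds Bmp1 near Lox, by 4.17 on the log2 scale (-4.17 ± 0.29; 3.25e-06) and Atp7a, the pump that loads copper into secreted enzymes, by 1.86 (-1.86 ± 0.33; 0.0036). Postn also stands in the list of pericyte markers. Atp7a was at 13.60 and 14.07 in Axin2 and 10.69 and 10.95 in Axin2:Pdgfra, where Lox was low and high in turn. In the other pair of this contrast its libraries overlapped, at 13.28 and 12.08 in Negative and 12.37 and 11.58 in Pdgfra. Its interaction was -2.30 ± 0.66 (limma, adjusted p = 0.384). Bmp1, the activating protease, had a difference of 0.78 ± 0.63 (0.542). With the Axin2 label Emilin1 was higher by 1.63 ± 0.38 (0.0473), beside 0.501% of all genes. In Wnt2 Fn1 was higher by 1.02 ± 0.18 (0.00983) and Postn lower by 2.05 (-2.05 ± 0.32; 0.00374), beside 0.719% and 1.44% of all genes.

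Plod1, Plod2 and Lox are known to respond to low oxygen, and several of the family to TGF-beta. Of 15 hypoxia-induced genes, 1 was higher with the Pdgfra label, Adm by 4.75 ± 0.86 (limma, adjusted p = 0.0042), with a list median of 0.21. With the Axin2 label 1 was lower, Vegfa by 1.92 on the log2 scale (-1.92 ± 0.24; 0.00325), with a median of 0.03. The shares of all genes were 3.55% and 1.14%, so 1 gene of 15 does not set the list apart. The glucose transporter Slc2a1 had differences of 0.01 ± 0.41 (0.993) and 0.03 ± 0.41 (0.982) for the labels in turn. In Wnt2 none of the 15 passed (median -0.24). Of 12 TGF-beta and YAP response genes, 3 were higher with the Pdgfra label, beside 3.55% of all genes. Among them were Skil by 1.95 ± 0.37 (limma, adjusted p = 0.00514) and Tgfbi by 4.14 ± 0.94 (0.0159). In the same contrast 2 were lower, beside 2.93% of all genes. These were Ltbp2 (-3.09 ± 0.32, 5.49e-05) and Axl (-1.49 ± 0.28, 0.00488), and the list median was 0.08. Axl was higher with the Axin2 label (1.19 ± 0.28, 0.047), and both Axl (-4.75 ± 0.31, 2.24e-06) and Ltbp2 (-3.42 ± 0.35, 0.000174) were lower in Wnt2, as was Loxl2. The shares of all genes were 0.501% higher with the Axin2 label and 1.44% lower in Wnt2.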

How the data were processed

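Log2 values, 1 per Ensembl gene and library, were deposited by the authors; the base of the log was inferred from the values. Per the submitters' processing notes, STAR, limma and build mm9 were used; the sources used here give neither their roles and versions nor the annotation or counter. All 10 tables shared the highest value of 19.25 and had medians of 9.10 to 9.11, as quantile normalization leaves them. They hold no counts, which leaves the depth unknown and allows no counting interval. Symbols were matched to 14720 of 14854 identifiers with the GENCODE M21 table, and Ctgf and Cyr61 through RefSeq synonyms.

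The fits used the 14177 genes that reached 6 on the log2 scale in 2 or more libraries. A mean per lineage was fitted to all 10 libraries with no covariate (limma 3.58.1, R 4.3.3; eBayes with trend and robust; two-sided; Benjamini-Hochberg over all genes; threshold 0.05), which left 5 residual degrees of freedom. The code was tested on simulated data. Every member was described. Of the other lists, up to 4 genes past the threshold per list, contrast and direction were named by smallest adjusted p, plus Eln, Fkbp10, Serpinh1, Bmp1 and Slc2a1, chosen after their values were seen; 1 gene that the rule names is not reported here. Genes most like a member were the 3 with the highest Pearson correlation. Members and lists were chosen with earlier results of these data known. Marker levels are the log2 of summed linear values. No sequence is given, since no protein table was used here and the 3 members with a promoter entry (Loxl4, Plod1, Plod3) had no measurement that bears on it.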

Additional observations from a re-analysis of the deposited data

How the results depend on the processing

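Without limma's trend and robust options 0 members passed the F-test, the 10 pairwise tests, the Pdgfra label, the Axin2 label and the Wnt2 contrasts (limma; 4, 23, 2, 3 and 2 at unadjusted p under 0.05), against 4, 12, 2, 1 and 2 as reported above. Over all genes, calls fell from 1163 to 205 (F-test), 918 to 364 (Pdgfra label), 232 to 0 (Axin2 label) and 306 to 66 (Wnt2). With Negative library 2 and Wnt2 library 2 both left out, so that 1 library stood for each of those groups with the spread of the others, 2 members passed the F-test and 0 the Axin2 label and Wnt2 contrasts (5 and 4 at unadjusted p under 0.05). Library quality weights gave 5 in Wnt2 and 0 for the Axin2 label, which was also at 0 with the second index sequence as a factor and with the fit limited to the 4 lineages. Over all genes, these weights gave 1322 calls in Wnt2 and 141 for the Axin2 label. That label had 123 and 176 calls in the other 2 settings. Calls over all genes fell in each left-out fit in which a member lost its F-test, Axin2 label or Wnt2 call. These losses are therefore not particular to the members. They also fell in each left-out fit in which a member gained such a call, so the gains went against the change over all genes. With a library left out, counts ran from 2 to 5 (F-test), 6 to 14 (pairs), 2 to 2 (Pdgfra label), 0 to 1 (Axin2 label), 0 to 0 (interaction) and 0 to 3 (Wnt2). The filter settings and the common floor left each of these counts as it was, as did cyclic loess except for 11 pairs, and no called difference changed sign. The cause was not tested. Over the filtered genes, same-numbered libraries showed little common deviation from their group means (correlations -0.06 to 0.03 over 6 pairs of groups, Negative left out). This cannot tell whether they share an animal or a day. With the replicate block, in which Negative library 0 shares its number with no other, 4, 10, 2, 1, 0 and 2 calls were made (F-test, pairs, Pdgfra label, Axin2 label, interaction and Wnt2). The lowest value differs between libraries and reached 2.67, which limits folds of low genes such as Loxl4, and 2 libraries per lineage limit every test.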
